A study of Arabidopsis thaliana with 12 samples.

Results

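Cytochrome P450 genes were described by family in RNA-seq of Arabidopsis thaliana seedlings that overexpress the homeobox gene KNAT1 or are wild type. A gene was taken when its description in the authors' count table named a cytochrome P450 family, and the families CYP78, CYP88, CYP90, CYP98 and CYP707 were left out. This gave 177 of the 32673 genes in the table, in 33 families, of which 10 had 1 member. P450 genes whose description names no family (37 rows) were not members, among them the cinnamate 4-hydroxylase, ent-kaurene oxidase and allene oxide synthase genes.

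The 12 libraries came from whole seedlings of the Nossen accession (No-0), 3 from each of 4 groups. These were 35S::KNAT1 in paclobutrazol with gibberellin (PAC+GA3), 35S::KNAT1 in paclobutrazol alone (PAC), wild type in PAC+GA3 and wild type in PAC. All seedlings were 7 days old. Liquid medium with 10 µM PAC was given for 18 h, and then for 5 h either 10 µM PAC and 100 µM GA3 together or 10 µM PAC, so no group was free of PAC. KNAT1 is a class I KNOX transcription factor of the shoot meristem and stem, the 35S promoter drives it in most tissues, PAC blocks gibberellin synthesis, and the series title names xylem fiber differentiation through an interaction of KNAT1 with DELLA proteins. The labels do not say whether the line was 1 clone or whether replicates came from separate cultures, and where they did not, p-values reflect technical spread only.

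Cytochrome P450s are heme enzymes of the endoplasmic reticulum or plastid that insert oxygen into small molecules, with electrons from P450 reductases. In plants they shape glucosinolates, camalexin, cutin and suberin monomers, triterpenes, sterols and hormones. Large families such as CYP71 and CYP705 sit in tandem arrays of similar genes, and many of their members have no known substrate.

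Total counts ran from 9232836 to 14053594 per library. KNAT1 itself stood at 437.4 ± 42.2 CPM under PAC+GA3 and 423.2 ± 30.8 CPM under PAC in 35S::KNAT1, against 22.2 ± 0.459 and 20.7 ± 3.55 CPM in wild type (CPM, read counts relative to the TMM-scaled library total, mean ± SD, n = 3), as labelled. The 8 markers of green tissue (Rubisco, chlorophyll-binding and photosystem genes) summed to between 19432.5 and 24551.0 CPM in the 6 libraries of 35S::KNAT1, against 36043.7 to 47051.6 CPM in the 6 of wild type. All 8 were lower in 35S::KNAT1 under PAC+GA3 and 7 under PAC. The 8 root markers summed to between 95.4 and 151.5 CPM in 35S::KNAT1, against 67.3 to 120.8 CPM in wild type, and 2 were higher in each medium. None of the 16 markers was at 0. In whole seedlings, fewer cells of a type and less RNA per cell cannot be told apart, and the part of this difference in green tissue RNA in the P450 results below was not tested. The share of an rRNA gene stood apart in 3 libraries. Replicate 1 of 35S::KNAT1 under PAC+GA3 was at 1.435%, replicates 2 and 3 of wild type under PAC were at 0.488% and 0.347%, and the highest of the others was at 0.197%.

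The part of a P450 gene that binds the heme is short and conserved, with a cysteine that holds the iron. It is shown for 3 arrays on chromosome 3 whose neighbouring genes behaved differently below, and for CYP705A13, which had no read in 35S::KNAT1. A search of RefSeq coding sequences (TAIR10.1 assembly) for a 10-residue signature found it in 170 of 177 members. CYP71A27, among the largest rises below, was 1 of the 7 without it. Each line gives the 30 coding bases 5′ to 3′, with the cysteine codon in capitals. The CYP72A windows lie on the plus strand between chr3:4916671-4939157.
CYP72A8: tttggatggggaccaagattcTGTcctggc
CYP72A11: tttgcgtggggatcgaggatcTGCattggc
CYP72A13: tttgcgtggggaccgaggatcTGCattggc
CYP72A14: tttgcgtggggaccaaggatcTGCattggc
CYP72A15: tttgcgtggggaccgaggataTGCataggc
CYP72A11 differed from CYP72A13 at 1 of 30 bases, from CYP72A14 at 2, from CYP72A15 at 3 and from CYP72A8 at 9. The CYP71B windows lie on the minus strand between chr3:9639376-9647079.
CYP71B34: tttggaggcggccggagaatgTGTcctgca
CYP71B35: tttgggggcggtcggagaatcTGTcctgca
CYP71B36: tttggaagtggtcgaagaatgTGTcctgcc
CYP71B37: tttggaagtggtaggagaatgTGTcctgcc
CYP71B34 and CYP71B35 differed at 3 bases, CYP71B35 and CYP71B36 at 6, and CYP71B36 and CYP71B37 at 2. The first CYP705A window lies on the minus strand at chr2:5934925-5934954, and the other 4 on the plus strand between chr3:7335682-7346813.
CYP705A13: tttggcagcggaagaagaggaTGTcctgga
CYP705A28: ttctcagccggaaggagaggcTGTcctgga
CYP705A30: ttctccgcgggaaggagaggcTGTcctgga
CYP705A32: ttctcaactggaaggagaggcTGTcctgga
CYP705A33: ttcggcggaggaaggagaggcTGTcctgga
CYP705A28 and CYP705A30 differed at 2 bases, CYP705A30 and CYP705A32 at 3, and CYP705A28 and CYP705A33 at 5. The cysteine codon was TGT in 126 members and TGC in 44. Among the 5 CYP72A windows, 4 had TGC.

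P450 genes took a larger share of the RNA in 35S::KNAT1 than in wild type, though their single members moved in both directions. The 177 members held 0.288 to 0.304% of counts in the 6 libraries of 35S::KNAT1, against 0.204 to 0.263% in the 6 of wild type, with no overlap. Their summed level was 2863.3 ± 82.2 CPM in 35S::KNAT1 against 2454.3 ± 231.3 CPM in wild type under PAC+GA3, and 2817.6 ± 107.7 against 2296.1 ± 221.2 CPM under PAC (SD, n = 3). The highest member per length was CYP81F4, a hydroxylase of indole glucosinolates, at 207.1 CPM per kb of exon over the 12 libraries. It also had the most counts, 48751, and did not pass the test between genotypes, at 436.2 ± 44.2 CPM in 35S::KNAT1 and 345.7 ± 90.5 CPM in wild type under PAC+GA3, and 364.2 ± 58.3 and 280.5 ± 70 CPM under PAC. CYP83B1, the next step after indole-3-acetaldoxime in the same pathway, followed at 89.6 CPM per kb.

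Of the 177 members, 28 had no count in any library and 38 more had too few to test (at most 91 counts over 12 libraries). This left 111 tested members, which passed a filter on low counts and are not all members. With edgeR's quasi-likelihood test and Benjamini-Hochberg adjustment over all 19879 genes tested, 53 of the 111 differed between 35S::KNAT1 and wild type under PAC+GA3, 29 higher and 24 lower in 35S::KNAT1. That is 47.7%, beside 25.5% of all genes tested (12% higher and 13.6% lower). Under PAC 49 members differed, 29 higher and 20 lower in 35S::KNAT1, or 44.1% beside 25.2% of all genes (12.3% higher and 12.9% lower). Leaving out the 3 libraries with the raised rRNA share, a choice made after seeing the data, gave 20 higher and 23 lower members under PAC+GA3 and 16 and 15 under PAC. Under PAC, where wild type then had 1 library, CYP83B1, CYP81F2, CYP735A2, CYP76C1, CYP72A8, CYP72A13, CYP72A14, CYP71B19 and CYP71B12 were among those that lost the call (adjusted p 0.0545 to 0.176). In that fit the lone wild-type library was assumed to vary like the libraries of the other groups. All 9 kept their direction, with a log2 difference of 0.44 for CYP83B1 against 0.53 with all libraries, 0.70 against 1.02 for CYP81F2 and -0.63 against -0.68 for CYP735A2. The libraries of the genotypes did not overlap for 55 members under PAC+GA3 (49.5%, beside 38.6% of all genes) and for 61 under PAC (55%, beside 40.4%). The median size of the log2 difference, whatever its sign, was 0.47 under PAC+GA3 and 0.53 under PAC for members, and 0.20 in both media for all genes tested. The signed median was near 0 for members (0.00 and 0.07) and for all genes (0.01 and 0.00).

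Most members called in one medium were called in the other. In both media 25 members were higher and 18 lower in 35S::KNAT1, and no member changed direction among those called in both. Another 10 were called under PAC+GA3 alone and 6 under PAC alone. For none of these 16 did the difference between the media pass the test (adjusted p of the interaction 1 in each). Across 108 members the log2 differences under PAC+GA3 and PAC had a Pearson r of 0.917, leaving out the 3 members with at most 3 counts in a 35S::KNAT1 group. Genes are not independent replicates, so no p is given. The matching counts and r over all genes tested are not given here, so this agreement is not shown to be particular to P450 genes.

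The 6 largest families held 102 of the 177 members. CYP71, the largest with 45 members, had 29 tested, of which 13 rose and 9 fell under PAC+GA3 and 12 rose and 8 fell under PAC. That is 75.9% and 69% called, beside 25.5% and 25.2% of all genes. Its summed level was 401.3 to 412.4 CPM in 35S::KNAT1 against 329.3 to 364.3 CPM in wild type under PAC+GA3, and 411.7 to 426.5 against 302.9 to 357.0 CPM under PAC. CYP71B7 had the highest level per length of this family (42.9 CPM per kb) and was higher in 35S::KNAT1, at 103.8 ± 1.46 CPM against 65.2 ± 4.06 CPM in wild type under PAC+GA3, and 98.5 ± 9.8 against 53.4 ± 3.75 CPM under PAC. Its log2 differences were 0.67 ± 0.09 and 0.88 ± 0.09 (SE, adjusted p = 1.33e-05 and 6.57e-07). CYP705, the Brassicaceae family with roles in triterpene metabolism, had more falls than rises. Of its 16 tested members 5 fell under PAC+GA3, and 6 fell and 1 rose under PAC. The falls were 31.2% and 37.5% of its tested members, beside 13.6% and 12.9% of all genes. They include CYP705A13 and CYP705A28, which passed the count filter only through the wild-type libraries and raise these shares. The summed level of the family did not fall with its members. The sum was 191.4 ± 12.2 CPM in 35S::KNAT1 and 181.1 ± 46.7 CPM in wild type under PAC+GA3, and 188.7 ± 12 and 158.3 ± 19.2 CPM under PAC (SD, n = 3), with overlap in both media, and CYP705A5 alone held 37.2% of the family's level per length. Its median log2 difference was -0.11 and -0.06, and 9 members were called in neither medium. The 6 falls under PAC became 3 without wild-type PAC replicate 3 and 3 without 35S::KNAT1 PAC replicate 1.

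CYP72, whose members include gibberellin and triterpene oxidases in several plants, had 5 tested members, and 4 of them rose in both media. That is 80%, beside 12% of all genes higher under PAC+GA3 and 12.3% under PAC. Its sum was 401.6 to 428.4 CPM in 35S::KNAT1 against 275.8 to 304.4 CPM in wild type under PAC+GA3, and 407.3 to 463.9 against 270.0 to 312.0 CPM under PAC. In CYP86 and CYP77, which hold fatty acid hydroxylases and epoxidases of cutin and suberin, the members that were called fell, 4 of 11 tested under PAC+GA3 (36.4% called, beside 25.5% of all genes) and 2 under PAC (18.2%, below the 25.2% of all genes). The highest CYP86 gene per length, CYP86A2 (43.2 CPM per kb), was not called in either medium. Of the 6 tested CYP94 genes, only CYP94B3 was called (16.7% under PAC+GA3, beside 25.5% of all genes). CYP94D2, the highest of them per length at 11.6 CPM per kb, was not called. CYP77A5P, annotated as a pseudogene of CYP77 and its highest member per length at 12.3 CPM per kb, was not called either. CYP89A2, the CYP89 gene with the highest level per length (31.3 CPM per kb), fell to 38.6 ± 9.84 CPM in 35S::KNAT1 against 66.0 ± 7.03 CPM in wild type under PAC+GA3 (adjusted p = 0.0185), and was at 53.1 ± 12.5 and 77.0 ± 13 CPM under PAC, which did not pass. Its call was lost without wild-type PAC+GA3 replicate 1 or 3 or 35S::KNAT1 PAC+GA3 replicate 2 or 3 (0.0572 to 0.0658).

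**Figure D1:**
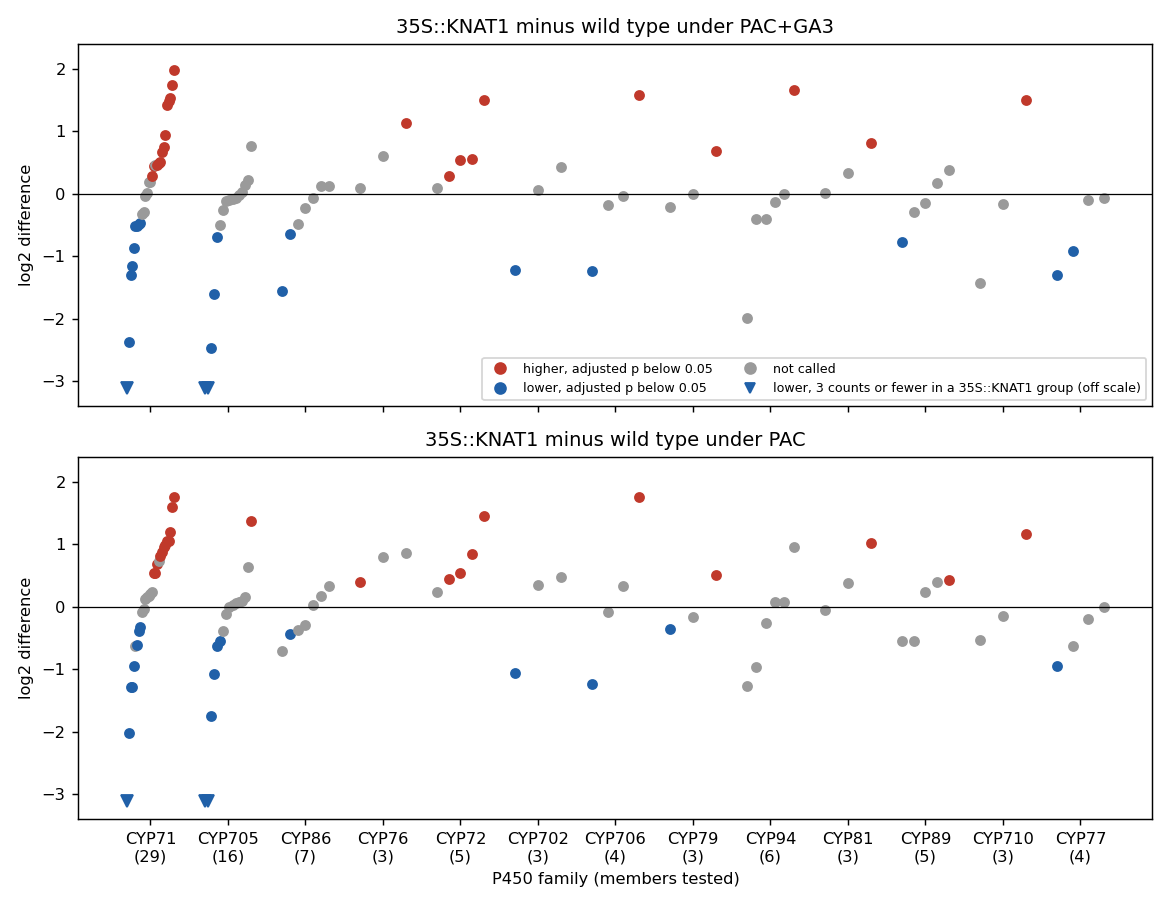
Log2 difference between 35S::KNAT1 and wild type for each tested P450 gene, by family, for the 13 families with 3 or more tested members, under PAC+GA3 (top) and PAC (bottom). Triangles mark 3 genes with at most 3 counts in a 35S::KNAT1 group, whose size is off the scale; CYP71 spans both directions, the lowest CYP705 points are falls, and the CYP72 points lie above 0.

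The largest differences were in genes with at most 2 counts in each 35S::KNAT1 group. CYP705A13 (AT2G14100, chr2:5934556-5936371) had no read in any of the 6 libraries of 35S::KNAT1, against 6.87, 5.25 and 7.55 CPM in wild type under PAC+GA3 and 6.07, 4.68 and 6.21 CPM under PAC. Against a floor of 3 counts over a group of 3 libraries, it was at least 76.5-fold lower in 35S::KNAT1 under PAC+GA3 and at least 63-fold lower under PAC. CYP705A28 (AT3G20935, chr3:7334770-7335912) had 2 counts in each 35S::KNAT1 group, against 171 counts in wild type under PAC+GA3 and 165 under PAC. The wild-type level was 86.1 times that of 35S::KNAT1 under PAC+GA3 (95% counting interval 23.5 to 716.8) and 84.8 times under PAC (23.1 to 705.9). CYP71A28 (AT4G20235, chr4:10929146-10931277) had no count in 35S::KNAT1 under PAC+GA3 and 1 under PAC, against 110 and 81 in wild type. It was at least 36.9-fold lower in 35S::KNAT1 under PAC+GA3, and under PAC the wild-type level was 83.2 times that of 35S::KNAT1 (14.5 to 3327.9). These intervals and floors cover counting error only. Whether these loci were intact in the 35S::KNAT1 line, and how well No-0 reads matched the TAIR10 reference there, was not tested. All 3 genes passed the edgeR test in both media (largest adjusted p 2.09e-06) and under every alternative that tested them. No library of one genotype overlapped the other. The 3 genes passed the count filter only through the wild-type libraries, so these results add no support beyond the counts themselves. They are among the falls counted above for all members and for CYP71 and CYP705.

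Among the members, 19 had counts in 1 genotype only, 10 at 0 in 35S::KNAT1 and 9 at 0 in wild type. The share of all genes with counts in 1 genotype only is not given here, so these numbers are not read as a trait of P450 genes. Of these 19 genes, 11 had at most 2 counts in all (CYP86C3, CYP705A24, MAH1, CYP96A3, CYP704B1, CYP81D6, CYP71B17, CYP702A3, CYP82C3, CYP82C2 and CYP96A13), which is too few to compare. Besides CYP705A13, 5 were at 0 in 35S::KNAT1. CYP705A32 had 16 wild-type counts under PAC+GA3 and 19 under PAC, at least 5.37-fold and 6.51-fold lower in 35S::KNAT1. CYP96A5 had 21 and 11 wild-type counts, at least 7.05-fold and 3.77-fold lower. CYP710A3, CYP76C4 and CYP724A1 had at most 10 wild-type counts in a medium. In the other direction CYP71A15 had 8 counts in 35S::KNAT1 under PAC+GA3 and 10 under PAC against 0 in wild type, at least 2.65-fold and 3.24-fold higher. CYP86C1 had 3 and 6 counts in 35S::KNAT1. None of these low genes passed the count filter, so they carry no test.

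Other members fell or rose by more than 2-fold in both media with reads in every library of both genotypes, and 6 of them are described first. Of these 6, CYP705A4 and CYP71B13 were low, at 6.28 CPM or less in every library. CYP706A5 (AT4G12310) fell to 24.7, 24.5 and 24.4 CPM in 35S::KNAT1, against 60.6, 51.2 and 62.2 CPM in wild type under PAC+GA3, and to 24.6, 25.1 and 29.9 CPM against 76.6, 53.9 and 56.5 CPM under PAC. Its log2 difference was -1.24 ± 0.13 and -1.24 ± 0.12 (SE, adjusted p = 1.04e-06 and 1.18e-06). CYP705A4 (AT4G15380) was at 1.16, 0.807 and 0.788 CPM in 35S::KNAT1 against 6.28, 4.01 and 4.91 CPM in wild type under PAC+GA3, and at 1.03, 0.979 and 1.48 against 4.59, 3.32 and 3.58 CPM under PAC. CYP71B13 (AT5G25140) was at 0.745, 1.34 and 0.525 CPM in 35S::KNAT1 against 4.6, 4.01 and 4.91 CPM in wild type under PAC+GA3, and at 0.948, 0.489 and 0.846 against 2.95, 2.34 and 3.95 CPM under PAC. In all 3 the wild-type libraries lay above every 35S::KNAT1 library of the same medium.

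On the other side, CYP72A11 (AT3G14650) stood at 101.9, 96.7 and 98.7 CPM in 35S::KNAT1 against 35.6, 34 and 34.9 CPM in wild type under PAC+GA3, and at 107.1, 104.9 and 105.6 against 42.9, 36.2 and 37.3 CPM under PAC. This was a 2.84-fold and 2.73-fold rise, with the smallest adjusted p of the 111 members (1.5e-10 and 2.55e-10). CYP706A1 (AT4G22690) had 85.1, 78.8 and 72.1 CPM in 35S::KNAT1 against 27, 29.9 and 22.3 CPM in wild type under PAC+GA3, and 72.4, 71 and 82.9 against 24.6, 20.2 and 22 CPM under PAC (log2 differences 1.58 ± 0.11 and 1.76 ± 0.11, adjusted p = 7.32e-09 and 2.29e-09). CYP71A27 (AT4G20240) had 12.9, 14.7 and 14.5 CPM in 35S::KNAT1 against 3.8, 4.32 and 4.55 CPM in wild type under PAC+GA3, and 13.3, 17 and 13.5 against 3.99, 4.1 and 4.89 CPM under PAC, a rise of 3.34-fold and 3.38-fold. In each of the 3 the lowest 35S::KNAT1 library lay above the highest of wild type.

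**Figure D2:**
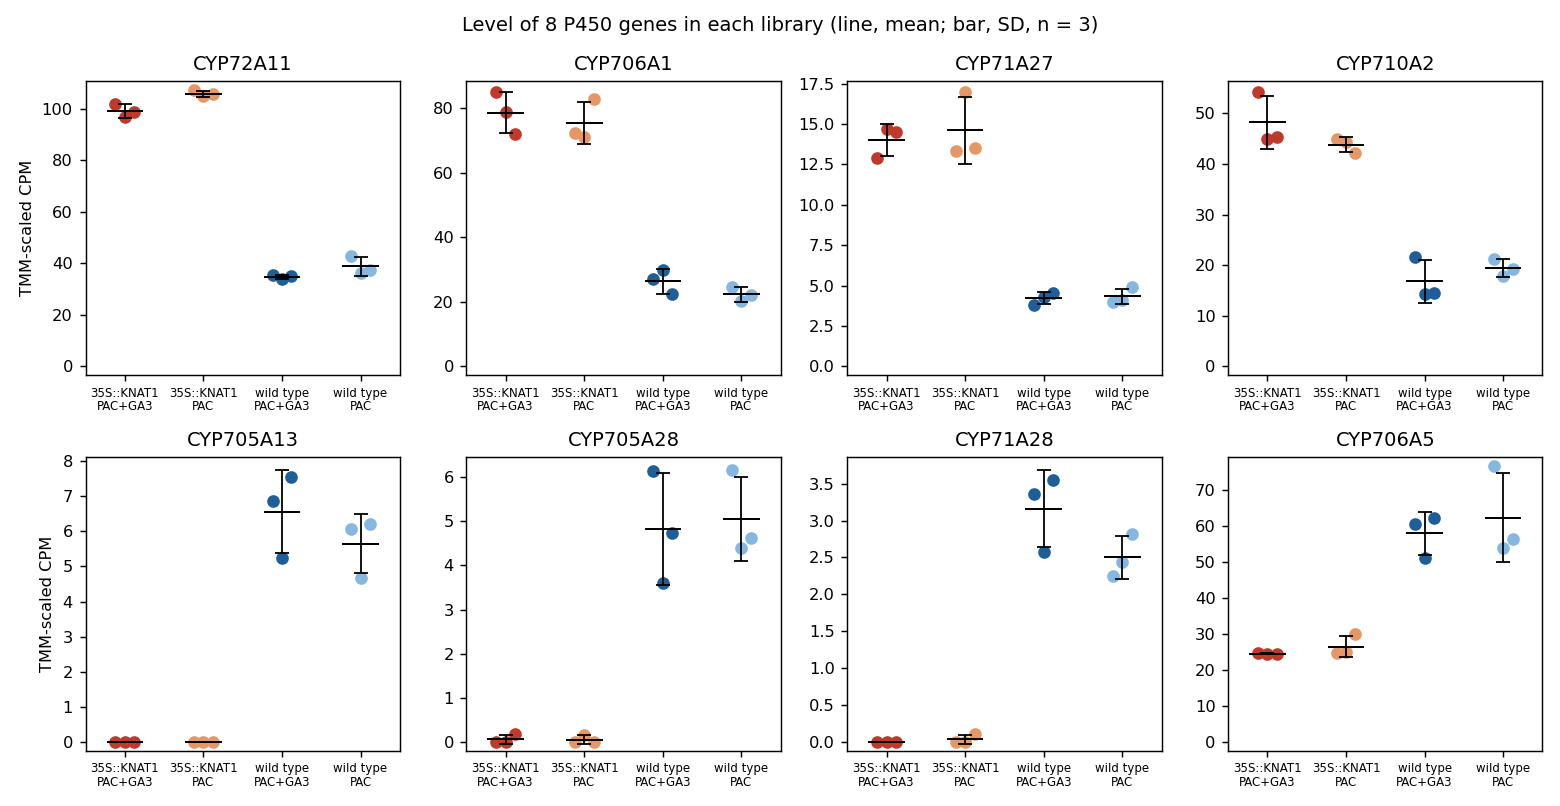
Level of 8 P450 genes in every library, in TMM-scaled CPM, for 35S::KNAT1 and wild type in PAC+GA3 and PAC (points, libraries; line, mean; bar, SD, n = 3). The 4 genes of the top row are higher and the 4 of the bottom row lower in 35S::KNAT1, with no overlap between genotypes in either medium.

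Other large changes were seen in CYP71 and CYP705. CYP71B35 fell by 1.15 ± 0.16 under PAC+GA3 and by 1.29 ± 0.16 under PAC on the log2 scale, CYP71A25 by 1.30 ± 0.30 and 1.28 ± 0.31, and CYP705A30 by 1.60 ± 0.31 and 1.08 ± 0.30. CYP71B36 rose by 1.98 ± 0.33 and 1.59 ± 0.28, CYP71B26 by 1.54 ± 0.18 and 1.20 ± 0.16, and CYP71B24 by 1.49 ± 0.26 and 1.05 ± 0.27. All 6 were called in both media. The PAC call of CYP705A30 was lost without wild-type PAC replicate 1 or 3 or 35S::KNAT1 PAC replicate 1 (adjusted p 0.0571 to 0.0748), and that of CYP71B24 without 35S::KNAT1 PAC replicate 2 (0.055).

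Many of these genes are neighbours. The members formed 35 runs of 2 or more genes with gaps of at most 10000 bp, holding 110 of the 177. Of 75 neighbouring pairs, 39 had both genes tested. Under PAC+GA3 both genes rose in 7 pairs, both fell in 3 and they went opposite ways in 3, while 18 pairs had 1 gene called and 8 had none. Under PAC these counts were 7, 3, 2, 19 and 8. Pairs that moved the same way numbered 10 against 3 opposed pairs under PAC+GA3, and 10 against 2 under PAC. The share among neighbouring pairs of all genes was not computed, and no test was made. Pairs within a run share genes, and close copies may share reads, so the pairs are not independent. The genes of the runs below that were not among the largest changes were picked after their values were seen.

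CYP71A28 and CYP71A27 lie on the same strand of chromosome 4, 215 bp apart, and moved in opposite directions. In 35S::KNAT1 the first had almost no reads and the second was raised over 3-fold. In the CYP705A run on chromosome 3, CYP705A28 and CYP705A30 fell, CYP705A32 had reads only in wild type, and CYP705A33 was at 6.38 ± 0.866 CPM in 35S::KNAT1 and 6.89 ± 0.736 CPM in wild type under PAC+GA3, and at 6.72 ± 0.968 and 6.4 ± 0.504 CPM under PAC. Its 95% interval for the log2 difference ran from -0.45 to 0.21 and from -0.28 to 0.39. The windows printed above differ between CYP705A28 and CYP705A33 at 5 of 30 bases.

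Along the CYP71B genes of chromosome 3, 12 were tested and 9 were higher in 35S::KNAT1 in both media. Of all genes tested, 12% were higher under PAC+GA3 and 12.3% under PAC. CYP71B19, CYP71B20, CYP71B23, CYP71B3 and CYP71B24 rose in the first run, and CYP71B4, CYP71B26, CYP71B36 and CYP71B37 in the second. CYP71B22 and CYP71B34 were not called, and CYP71B35, between CYP71B34 and CYP71B36, fell. CYP71B35 was at 4.97, 4.93 and 3.85 CPM in 35S::KNAT1 against 9.21, 9.77 and 11.6 CPM in wild type under PAC+GA3, while CYP71B36 was at 2.15, 2.42 and 2.1 against 0.438, 0.823 and 0.455 CPM. Under PAC CYP71B35 had 3.79, 4.81 and 3.7 CPM in 35S::KNAT1 against 9.79, 9.27 and 11.3 CPM in wild type, and CYP71B36 had 2.5, 4 and 2.96 against 1.13, 0.975 and 1.04 CPM. Single libraries ended some of the smaller rises. Under PAC+GA3 that of CYP71B4 was lost without 35S::KNAT1 replicate 1 (adjusted p 0.0512), that of CYP71B20 without wild-type replicate 1 or 35S::KNAT1 replicate 3 (0.0987 to 0.111), that of CYP71B19 without any of 5 of the 6 libraries compared, all but wild-type replicate 1 (0.0564 to 0.111), and that of CYP71B23 without wild-type replicate 2 or 3 or 35S::KNAT1 replicate 1 (0.0514 to 0.166). Under PAC the rise of CYP71B23 was lost without wild-type replicate 2 or 3 or 35S::KNAT1 replicate 1 (0.088 to 0.124).

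In the CYP72A run, CYP72A11 rose most, and CYP72A13, 82 bp downstream and 92.9% identical to it over the coding sequence, rose by 0.28 ± 0.10 under PAC+GA3 and 0.44 ± 0.10 under PAC on the log2 scale. CYP72A13 was nevertheless the gene of the run with the highest level per length, 56.8 CPM per kb against 32.5 for CYP72A11. Its PAC+GA3 rise was lost when any of 8 of the 12 libraries was left out, all but wild-type PAC replicate 1, 35S::KNAT1 PAC replicates 1 and 2 and 35S::KNAT1 PAC+GA3 replicate 1 (adjusted p 0.0518 to 0.202). CYP72A8 and CYP72A14 rose by 0.56 ± 0.14 and 0.54 ± 0.12 under PAC+GA3, and CYP72A15 was not called. CYP72A9, a gibberellin 13-oxidase, had 5 counts in all 12 libraries and CYP72A10 had 3.

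**Figure D3:**
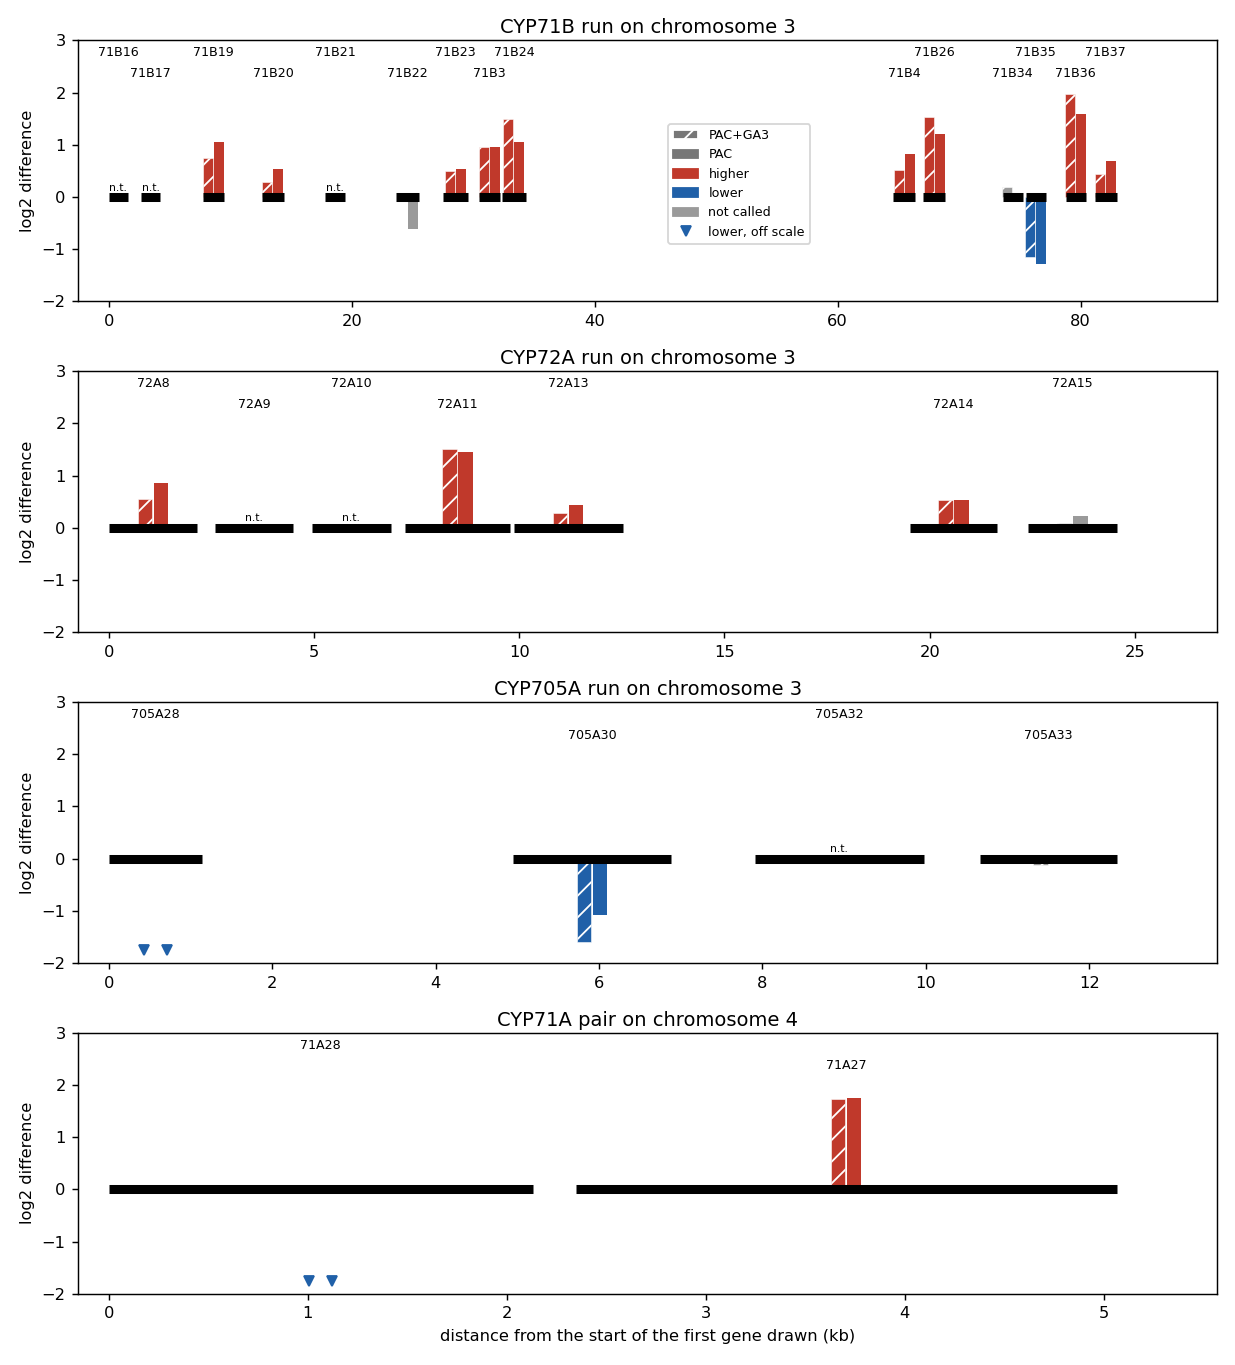
Log2 difference between 35S::KNAT1 and wild type (vertical) for P450 genes of 4 runs, placed by distance in kb from the first gene (black bars, genes as deposited; hatched, PAC+GA3; plain, PAC; n.t., not tested). Rises and falls stand side by side, as for CYP71B35 beside CYP71B36 and for CYP71A28 beside CYP71A27; triangles mark falls to at most 3 counts in a 35S::KNAT1 group.

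How the authors' counting treated reads shared by similar genes is not given in the sources used here, so values of close copies are uncertain. In 33 members the closest coding sequence was at least 90% identical, and in 6 at least 95%. The nearest were CYP706A1 with CYP706A2 (AT4G22710, 97.3%), CYP89A5 with AT2G12190 (96.6%), CYP71B19 with CYP71B20 (96.2%) and CYP710A3 with CYP710A4 (95.8%). CYP706A2, whose description names no family, did not pass the test, at 13.7 ± 2.69 CPM in 35S::KNAT1 and 11.2 ± 1.97 CPM in wild type under PAC+GA3, and 13.1 ± 1.79 and 12.8 ± 4.87 CPM under PAC. AT2G12190, also outside the rule and picked after its values were seen, fell to 0.551 ± 0.144 CPM in 35S::KNAT1 against 14.7 ± 0.217 CPM in wild type under PAC+GA3, and to 0.684 ± 0.304 against 14.5 ± 3.76 CPM under PAC (adjusted p = 4.26e-10 and 8.33e-10). Its copy CYP89A5 had 29.2 ± 1.64 CPM in 35S::KNAT1 and 25.9 ± 3.79 CPM in wild type under PAC+GA3, and 31.6 ± 5.41 and 23.4 ± 3.2 CPM under PAC, where its rise was called (adjusted p = 0.0247) but lost without wild-type PAC replicate 2 or 3 or 35S::KNAT1 PAC replicate 1 (0.0782 to 0.154).

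Of 48 members with a known role, 37 were tested, and 7 rose and 7 fell under PAC+GA3 and 7 rose and 4 fell under PAC. That is 37.8% and 29.7% called, beside 25.5% and 25.2% of all genes, so the share under PAC was near that of all genes. Of 8 glucosinolate genes tested 4 rose in each medium (50%, beside 12% of all genes under PAC+GA3 and 12.3% under PAC), and 1 fell under PAC. CYP79F2, which makes aldoximes from chain-elongated methionine, was at 62.2 ± 1.87 CPM in 35S::KNAT1 against 38.7 ± 0.483 CPM in wild type under PAC+GA3, and 57.2 ± 2.54 against 40.3 ± 3.97 CPM under PAC (log2 differences 0.68 ± 0.08 and 0.51 ± 0.08, adjusted p = 6.24e-06 and 0.000174). Its closest copy CYP79F1, outside the rule and 92.0% identical, was not called in either medium. CYP79F1 was at 85 ± 13 CPM in 35S::KNAT1 and 70.5 ± 6.83 CPM in wild type under PAC+GA3, and 95.5 ± 7.46 and 91.4 ± 17.1 CPM under PAC. Reads of these close copies may be shared. CYP83B1, which oxidises indole-3-acetaldoxime, was at 206.2 ± 20.4 CPM in 35S::KNAT1 against 149.1 ± 21 CPM in wild type under PAC+GA3, and 192.1 ± 5.69 against 133.4 ± 10.8 CPM under PAC (adjusted p = 0.00227 and 0.000909). The ring hydroxylases of indole glucosinolates CYP91A2 and CYP81F2 rose as well. CYP91A2, also called CYP81F1, rose 2.45-fold and 2.62-fold, and CYP81F2 1.76-fold and 2.03-fold. At the first step from tryptophan, CYP79B2 was not called, and CYP79B3 fell under PAC, by 0.36 ± 0.10 on the log2 scale. That fall was lost without wild-type PAC replicate 3 (adjusted p 0.0923) and with scaling by total counts alone, and the PAC+GA3 rise of CYP81F2 without wild-type PAC+GA3 replicate 2 or 35S::KNAT1 PAC+GA3 replicate 1 (0.0629 to 0.0753).

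Of 12 other genes of indole glucosinolate and camalexin metabolism, 5 rose and 1 fell under PAC+GA3, and 6 rose and 1 fell under PAC (50% and 58.3% called, beside 25.5% and 25.2% of all genes). MYB51, an activator of the indole branch, rose to 21.9 ± 1.48 CPM in 35S::KNAT1 against 9.38 ± 1.88 CPM in wild type under PAC+GA3, and to 16.9 ± 0.931 against 7.88 ± 0.402 CPM under PAC. MYB34, another activator, fell to 27.9 ± 1.28 CPM in 35S::KNAT1 against 42.8 ± 3.42 CPM in wild type under PAC+GA3, and to 28.6 ± 0.346 against 37.9 ± 5.98 CPM under PAC. UGT74B1, GGP1 and GSTF10, which act between the aldoxime and the finished glucosinolate, rose in both media, as did IGMT2. PEN2, the myrosinase that cleaves indole glucosinolates, rose under PAC (adjusted p = 0.0301). In camalexin synthesis CYP71A13 rose under PAC+GA3 only by the test, to 3.23, 1.52 and 1.75 CPM in 35S::KNAT1 against 1.02, 0.514 and 0.818 CPM in wild type. Its call was lost without wild-type PAC+GA3 replicate 2 or 35S::KNAT1 PAC+GA3 replicate 1 (adjusted p 0.0648 to 0.127), and the interaction did not pass (adjusted p = 1).

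Of the cutin, suberin and wax members, 4 of 8 fell under PAC+GA3 (50%, beside 13.6% of all genes) and 2 of 8 under PAC (25%, beside 12.9%), and none rose. The share called under PAC, 25%, was that of all genes, 25.2%. CYP77A6, an in-chain hydroxylase of flower cutin, was at 2.32, 2.33 and 3.42 CPM in 35S::KNAT1 against 7.23, 5.66 and 6.82 CPM in wild type under PAC+GA3, and at 2.76, 3.83 and 2.64 against 5.98, 6.63 and 5.36 CPM under PAC. Its log2 difference was -1.30 ± 0.20 and -0.94 ± 0.20 (adjusted p = 0.000105 and 0.00195), and the genotypes did not overlap in either medium. CYP86A4, an omega-hydroxylase of flower cutin, was at 7.12 ± 0.576 CPM in 35S::KNAT1 against 11 ± 1.61 CPM in wild type under PAC+GA3, and 6.84 ± 0.485 against 9.18 ± 0.312 CPM under PAC (adjusted p = 0.00171 and 0.0319). CYP86A7, another omega-hydroxylase, and CYP77A4, an epoxidase, fell under PAC+GA3 (adjusted p = 0.0175 and 0.0271), on 42 or fewer and 85 or fewer counts a group. The suberin genes CYP86A1 and CYP86B1 were not called.

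The fall of CYP86A4 under PAC was lost without any single library of that comparison (adjusted p 0.0556 to 0.123). Under PAC+GA3 that of CYP86A7 was lost without wild-type replicate 1 or 3 or 35S::KNAT1 replicate 2 or 3 (0.0533 to 0.0904), and that of CYP77A4 without wild-type replicate 3 or 35S::KNAT1 replicate 2 or 3 (0.0514 to 0.116). Of 20 tested partner genes of cutin and suberin synthesis 1 rose and 4 fell under PAC+GA3, and 2 rose and 2 fell under PAC. These shares called, 25% and 20%, were no higher than those of all genes, 25.5% and 25.2%. DCR, an acyltransferase of cutin, fell in both (31.5 ± 3.4 CPM in 35S::KNAT1 against 46.1 ± 4.41 CPM in wild type under PAC+GA3, and 32.5 ± 5.02 against 47.5 ± 8.21 CPM under PAC). LACS1, an acyl-CoA synthetase, rose in both (97.5 ± 9.83 CPM in 35S::KNAT1 against 71.2 ± 3.77 CPM in wild type under PAC+GA3, and 94.1 ± 7.46 against 65.7 ± 3.89 CPM under PAC). GPAT6, BDG and ABCG6 fell under PAC+GA3, GPAT8 rose and FAR1 fell under PAC.

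Few hormone P450 genes were among the members. CYP735A2, which hydroxylates cytokinins to trans-zeatin forms, was at 5.88, 5.11 and 5.17 CPM in 35S::KNAT1 against 6.72, 8.85 and 10 CPM in wild type under PAC+GA3, and at 5.86, 4.49 and 4.55 against 7.71, 7.32 and 8.94 CPM under PAC. It fell in both media (log2 differences -0.65 ± 0.17 and -0.68 ± 0.17, adjusted p = 0.0084 and 0.00753), and the PAC+GA3 call was lost without wild-type PAC+GA3 replicate 3 (0.0562). CYP714A1, which deactivates gibberellins, fell under PAC+GA3, to 1.74, 1.97 and 2.19 CPM in 35S::KNAT1 against 3.14, 3.29 and 3.91 CPM in wild type (adjusted p = 0.0174). That call was lost without wild-type PAC+GA3 replicate 3 or 35S::KNAT1 PAC+GA3 replicate 1 or 2 (0.0514 to 0.0769). CYP94B3, which hydroxylates jasmonoyl-isoleucine, rose under PAC+GA3, to 2.24, 1.79 and 0.963 CPM in 35S::KNAT1 against 0.877, 0.412 and 0.182 CPM in wild type (adjusted p = 0.0168). It lost the call without wild-type PAC+GA3 replicate 2 or 3 or 35S::KNAT1 PAC+GA3 replicate 1 or 2 (0.0518 to 0.0888). The strigolactone gene CYP711A1 was not called between genotypes.

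Among sterol genes CYP710A2, a sterol 22-desaturase, rose to 54.3, 45 and 45.3 CPM in 35S::KNAT1 against 21.7, 14.2 and 14.5 CPM in wild type under PAC+GA3, and to 44.9, 44.4 and 42.1 against 21.3, 17.8 and 19.2 CPM under PAC. This was 2.84-fold and 2.25-fold (adjusted p = 3.25e-07 and 5.97e-06), while its neighbour CYP710A1 was at 3.93 ± 0.756 CPM in 35S::KNAT1 and 4.35 ± 1.37 CPM in wild type under PAC+GA3 and was not called. CYP97A3, a carotenoid beta-ring hydroxylase of plastids, fell by 0.42 ± 0.10 on the log2 scale under PAC+GA3 (adjusted p = 0.00544), the direction of the green tissue markers above, whose part in this fall was not tested. CYP76C1, a linalool oxidase, was at 31.7 ± 1.59 CPM in 35S::KNAT1 against 24.1 ± 0.333 CPM in wild type under PAC (adjusted p = 0.00884), and under PAC+GA3 at 26.5 ± 4.48 and 24.9 ± 0.992 CPM, which did not pass.

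The thalianol cluster of root triterpenes varied among wild-type libraries. CYP705A5, its desaturase, was at 95.5, 88.7 and 67 CPM in 35S::KNAT1 and 78.3, 26.2 and 41.6 CPM in wild type under PAC+GA3, which overlapped, and at 82.4, 83.9 and 83.6 against 49.3, 21 and 25.5 CPM under PAC. Its rise was called under PAC (log2 difference 1.38 ± 0.43, adjusted p = 0.0462), but was lost without any of 9 of the 12 libraries, all but wild-type PAC replicate 1 and wild-type PAC+GA3 replicates 1 and 2 (0.0587 to 0.143). CYP708A2, the thalianol hydroxylase, had 70.9 ± 9.56 CPM in 35S::KNAT1 and 41.2 ± 22.6 CPM in wild type under PAC+GA3, and 75.7 ± 6.69 and 34.5 ± 15.4 CPM under PAC, and did not pass. The synthase THAS1 did not pass either, at 51.9 ± 8.58 CPM in 35S::KNAT1 and 49.5 ± 27.5 CPM in wild type under PAC+GA3. The acyltransferase THAA1 of the same cluster rose to 46.3 ± 7.61 CPM in 35S::KNAT1 against 6.22 ± 1.8 CPM in wild type under PAC+GA3, and to 43.7 ± 4.08 against 5.23 ± 1.22 CPM under PAC (adjusted p = 2.2e-08 and 1.77e-08).

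The electron donors of P450s were tested gene by gene, and the calls were counted over the list. Of 8 genes for P450 reductases, cytochrome b5 and its reductase, CB5-D fell in both media and CB5-A rose under PAC (adjusted p = 0.0412). The shares called, 12.5% under PAC+GA3 and 25% under PAC, were no higher than those of all genes, 25.5% and 25.2%. CB5-D was at 150.3 ± 7.56 CPM in 35S::KNAT1 against 205.6 ± 20.5 CPM in wild type under PAC+GA3, and 142.3 ± 4.39 against 183.0 ± 8.15 CPM under PAC. The reductases ATR1 and ATR2 were not called, with log2 differences of -0.06 ± 0.08 and 0.13 ± 0.11 under PAC+GA3 and -0.21 ± 0.08 and 0.08 ± 0.11 under PAC.

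The effect of GA3 was read from PAC+GA3 against PAC within each genotype, and no P450 gene passed. With edgeR's quasi-likelihood test no member was called between PAC+GA3 and PAC in 35S::KNAT1 (0 of 111, beside 0.111% of all genes) or in wild type (0 of 111, beside 0.0453%). At an unadjusted p below 0.05 there were 12 members in 35S::KNAT1 and 10 in wild type, or 10.8% and 9.01% beside 5.61% and 8.78% of all genes. The DESeq2 Wald test called 0 in 35S::KNAT1 and 1 in wild type, CYP71B26. The median size of the GA3 difference of members was 0.15 in 35S::KNAT1 and 0.17 in wild type on the log2 scale, beside 0.09 and 0.11 for all genes tested.

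CYP71B26, a CYP71B gene of unassigned substrate, came nearest. It was at 21.2, 17.9 and 25.2 CPM under PAC+GA3 against 27.6, 30.6 and 32.7 CPM under PAC in 35S::KNAT1, and at 9.64, 5.97 and 6.09 against 14.7, 11.1 and 13.5 CPM in wild type. The PAC+GA3 libraries lay below the PAC libraries in both genotypes. The log2 difference was -0.50 ± 0.15 in 35S::KNAT1 (adjusted p = 0.504) and -0.83 ± 0.18 in wild type (adjusted p = 0.146). It was called in wild type with a replicate block (-0.84 ± 0.17, adjusted p = 0.0351) and without wild-type PAC+GA3 replicate 1 (-1.12 ± 0.18, adjusted p = 0.0439). The block also called CYP89A2 in 35S::KNAT1 (-0.46 ± 0.09, adjusted p = 0.0185).

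CYP718 was at 9.94, 8.88 and 8.23 CPM under PAC+GA3 against 5.95, 7.34 and 5.71 CPM under PAC in 35S::KNAT1, and at 9.94, 7.82 and 7.91 against 7.37, 6.34 and 5.65 CPM in wild type. The strigolactone gene CYP711A1 was at 15.5, 14.8 and 17.3 CPM under PAC+GA3 against 19, 17.4 and 20.4 CPM under PAC in 35S::KNAT1, and at 14.1, 18.4 and 16.5 against 20.5, 19.8 and 23.5 CPM in wild type. Neither passed the adjusted test (0.495 and 0.869 in 35S::KNAT1, 0.469 and 0.321 in wild type), nor did CYP71B4 and CYP71B7. The PAC+GA3 and PAC libraries of CYP718 and CYP711A1 did not overlap in either genotype, as in 12.9% of all genes in 35S::KNAT1 and 11.8% in wild type.

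A difference in the GA3 effect between genotypes was not detectable at this depth and number of libraries. No member passed the interaction test (0 of 111, beside 0% of all genes, by edgeR and by DESeq2), and 2 had an unadjusted p below 0.05. These were CYP71A21, with an interaction of -0.52 ± 0.22 on the log2 scale, and CYP71A22, with -0.38 ± 0.18, followed by CYP76C1 with -0.31 ± 0.15 (adjusted p = 1 for each). CYP71A21 and CYP71A22 are neighbours with 91.4% identical coding sequences, so their counts are uncertain. Between genotypes they parted under PAC+GA3, where CYP71A21 rose to 13.7 ± 2.69 CPM in 35S::KNAT1 against 9.87 ± 0.631 CPM in wild type and CYP71A22 fell to 15.6 ± 2.29 against 21.6 ± 2.51 CPM (adjusted p = 0.0303 and 0.00858). The rise was lost without wild-type PAC+GA3 replicate 2 or 3 or 35S::KNAT1 PAC+GA3 replicate 2 or 3 (0.0535 to 0.19), and the fall without wild-type PAC+GA3 replicate 3 or 35S::KNAT1 PAC+GA3 replicate 1 (0.0537 to 0.0538). Under PAC CYP71A21 rose as well, to 14.9 ± 1.92 against 7.51 ± 1.17 CPM, and CYP71A22 was not called.

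**Figure D4:**
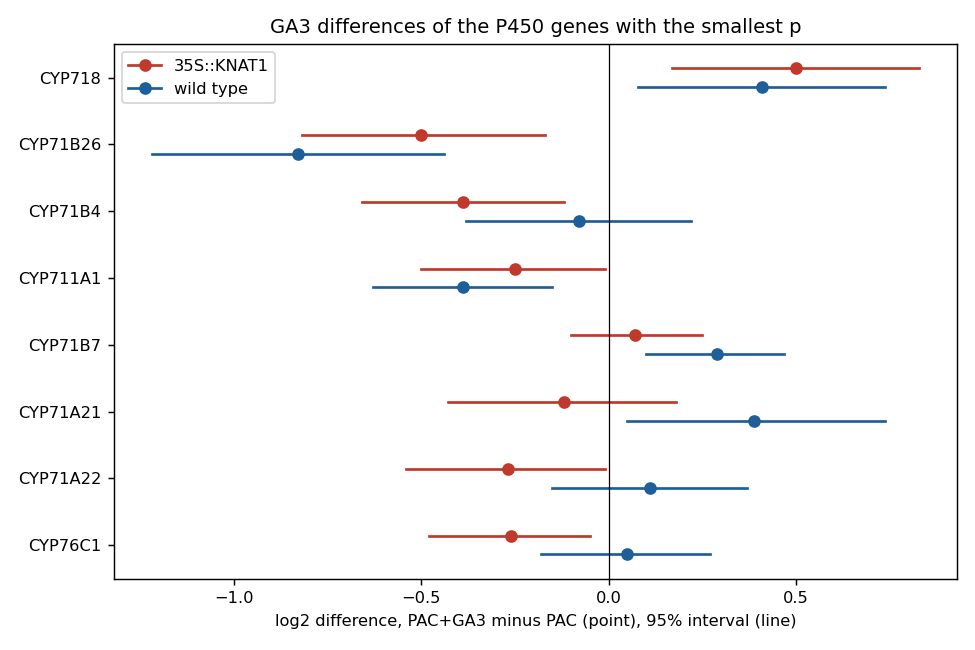
Log2 difference between PAC+GA3 and PAC with its 95% interval in 35S::KNAT1 (red, above) and wild type (blue, below) for the 8 P450 genes with the smallest p in a GA3 comparison or in the interaction. The intervals of CYP718, CYP71B26 and CYP711A1 lie on one side of 0 in both genotypes, before adjustment for the number of genes tested.

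The 250 bases before the annotated start of each member (RefSeq, TAIR10.1) were searched on both strands for TGACAG, the core bound by the KNOX protein KNOTTED1 of maize. The sequence occurred in 13 of 177 members (7.34%), beside 5.86% of 26676 genes with a coding sequence. It was present in 4 of the 18 members lower in both media (CYP705A13, CYP705A20, CYP705A28 and CYP77A6), in 1 of the 25 higher in both, in 1 of the 52 called in neither and in 6 of the 66 not tested (9.09%). Among the genes at or near 0 in 35S::KNAT1, CYP96A5 also held it, while CYP71A28, CYP710A3, CYP76C4 and CYP724A1 did not. The windows of CYP705A13 (minus strand, chr2:5936372-5936621) and CYP705A32 (plus strand, chr3:7342425-7342674), which had no read in 35S::KNAT1 and were picked because they hold a match, are shown 5′ to 3′ with the match in capitals.
CYP705A13: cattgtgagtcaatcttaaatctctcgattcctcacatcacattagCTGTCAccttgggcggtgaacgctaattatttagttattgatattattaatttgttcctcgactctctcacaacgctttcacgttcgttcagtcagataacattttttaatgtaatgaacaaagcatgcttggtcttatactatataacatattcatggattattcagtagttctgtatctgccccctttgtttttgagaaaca
CYP705A32: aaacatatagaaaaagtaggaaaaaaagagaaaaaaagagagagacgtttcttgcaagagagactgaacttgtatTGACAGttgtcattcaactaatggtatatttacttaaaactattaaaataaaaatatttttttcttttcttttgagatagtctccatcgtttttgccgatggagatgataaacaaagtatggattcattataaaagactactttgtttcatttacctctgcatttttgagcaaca
A match is a stretch of letters and not a measured binding site, and binding was not measured in these libraries. The windows are those of the reference assembly, and the sequence in No-0 was not checked.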

How the data were processed

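RNA of 12 whole-seedling libraries was measured by RNA-seq. The table that the authors deposited holds unnormalized read counts, 1 column per library. Per the submitters' processing notes, the build was TAIR10 and the tools named include TopHat2 2.1, cutadapt 1.8.3 and FastQC 0.11.5. The counter, its strand setting and its handling of reads that match several genes are not named in any source at hand, so reads of close copies and of antisense genes may be shared. The labels name both RNeasy and Trizol extraction and both a stranded and an unstranded kit.

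Counts of all genes were fitted with edgeR 4.0.16 (R 4.3.3), using TMM scaling, filterByExpr with a minimum count of 10, robust quasi-likelihood dispersion and 4 group means over 12 libraries. P-values were adjusted by Benjamini-Hochberg over 19879 genes, and a gene was called below 0.05. SE was derived from the quasi-likelihood F. The fit was also run on counts simulated from its own dispersions with independent libraries. That run cannot speak to effects shared between libraries. The biological coefficient of variation was 10.3%. Coding sequences were compared with BLAST 2.17.0, and RefSeq sequences were read at the deposited TAIR10 coordinates, which lie inside the TAIR10.1 chromosomes.

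The members and the lists were chosen with earlier results of these data known. Named genes were the 8 largest rises and falls per genotype comparison (at least 1 CPM, no overlap), the 3 smallest p-values per GA3 comparison and for the interaction, called members with a known role, the highest member per kb in families with at least 4 tested, the member with most counts, and members at 0 in 1 genotype. Alternatives were DESeq2 1.42.0, other scalings and filters, only the groups compared, a replicate block, and leaving out libraries.

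Same-numbered libraries moved together relative to their group means between PAC+GA3 and PAC in 35S::KNAT1 (correlations 0.147 to 0.231) and in wild type (0.176 to 0.377) and between genotypes under PAC (0.116 to 0.273). Under PAC+GA3 they were 0.15, -0.028 and 0.091. The labels give no shared day or batch for a number.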

Additional observations from a re-analysis of the deposited data

How the results depend on the processing

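The log2 difference of no named gene changed sign where it was called, under the alternatives run, but the balance of higher and lower counts did turn, as given here. Of 82 calls of named genes, 50 held under all alternatives that tested them and 32 were lost at least once. Leaving out 1 library at a time gave 24 to 33 higher and 14 to 21 lower members under PAC, 20 to 32 and 16 to 27 under PAC+GA3, 0 in the GA3 comparison of 35S::KNAT1, 0 to 1 in that of wild type (1 without wild-type PAC+GA3 replicate 1, CYP71B26) and 0 in the interaction. The filter of 5 CPM in 3 libraries, which tests fewer genes, gave 13 lower members under PAC and 14 under PAC+GA3. Without the 3 libraries of raised rRNA share 16 members were higher and 15 lower under PAC, with 1 wild-type library left there, and 20 were higher and 23 lower under PAC+GA3, against 29 and 24 with all libraries. In the GA3 comparisons the replicate block called 1 member in 35S::KNAT1 and 1 in wild type, and DESeq2 called 1 in wild type. The cause of these differences between tools was not tested. With the replicate block, 35 members were higher and 25 lower under PAC, and 33 and 26 under PAC+GA3. Scaling by total counts alone shifted the median of all genes by 0.12 under PAC+GA3 and 0.10 under PAC on the log2 scale. It called 4007 genes higher and 2019 lower under PAC+GA3, against 2382 and 2695 with TMM, and 3865 and 1872 under PAC, against 2443 and 2574. Among members it gave 33 higher and 24 lower under PAC+GA3, and 31 and 15 under PAC. Members under the count filter carry no test, so differences there were not detectable at this depth.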
